A study of Homo sapiens with 6 samples.

Results

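The region studied is the stretch of chromosome band 8q24 around MYC and PVT1, and its members are H3AcK9 peaks. H3AcK9 is histone 3 acetylated at lysine 9. Members were chosen by position alone: every peak that shares at least 1 bp with chr8:126000000-130500000, in the coordinates of the peak lists. That gave 795 peaks of the 376666 in the untreated list, 2006 of 912311 and 1978 of 913199 in the vorinostat lists, and 2023 of 896878 and 2038 of 884242 in the romidepsin lists. Together these are 8840 of 3983296 peaks.

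The peaks come from ChIP-seq of SKOV3 wt, an established human ovarian cancer cell line. Cells were left untreated or were given vorinostat or romidepsin for 24 h at 1 times the IC50. Vorinostat is a hydroxamate that inhibits class I and class II histone deacetylases (HDACs), and romidepsin is a cyclic depsipeptide that acts mainly on class I. There was 1 ChIP sample per condition. The company that sequenced the treated samples split each of them in 2, which gave 2 peak lists per drug, as the sample labels state. The study elsewhere speaks of independent experiments or biological replicates, and the lists are counted here as 1 sample. Fold changes use their mean, and the difference between such lists is not a biological error. No test between conditions can be made, and no result below has a replicate check. Reads per list are not part of the files, so the depth behind each list is unknown.

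The lists do not have the same limits. Over all chromosomes, neighbouring untreated peaks had at least 509 bp between them and no untreated peak was narrower than 127 bp. The vorinostat lists went down to 205 bp between peaks and a width of 51 bp, and the romidepsin lists to 201 bp and 50 bp. A stretch without a peak that is shorter than 509 bp can therefore occur in a treated list only. For this reason, key values are also given under equal limits, with peaks of every list joined where they were less than 509 bp apart and those narrower than 127 bp then removed. This setting was added after seeing the data, and it leaves the untreated list as it is. Joining counts stretches shorter than 509 bp as covered, and only treated lists have such stretches. Apart from the removal of narrow peaks, the covered bases of treated lists can thus only rise under it. A higher fold change in covered bases under equal limits is therefore no sign of a gain by itself.

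MYC encodes a transcription factor that drives growth and division and is one of the most often amplified oncogenes. PVT1 is a long non-coding RNA gene that follows MYC on the same strand. In some cancer cells its promoter is known to compete with that of MYC for enhancers inside PVT1. Most of the rest of the region is known as a gene desert, whose enhancers reach MYC over long distances and differ between tissues. H3AcK9 marks active promoters and enhancers, and HDACs take the mark away.

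The region was divided by the gene positions known in hg19 to the nearest kb, with MYC from 128748 to 128754 kb and PVT1 from 128806 to 129113 kb on chromosome 8. The promoter of each gene was taken as 2 kb on either side of its start. The PVT1 body ran from the end of its promoter to the end of the gene. The desert on the MYC side covered all before the MYC promoter, and the desert on the PVT1 side all after PVT1. The first is not free of genes. In the gene order of RefSeq on GRCh38.p14, NSMCE2, TRIB1, LRATD2, PCAT1, CCAT1, CASC8, POU5F1B and CASC11 precede MYC in that order. LINC00824, LINC00976 and LINC00977 follow PVT1. Their positions in the build of the lists were not used here.

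The MYC promoter was acetylated in every list. No untreated peak over it has a score of at least 1, a value whose scale is not known. In untreated cells a single peak of 9031 bp, from chr8:128745360 to 128754390, covered the promoter and the whole gene, so all 4000 bp of the promoter and all 4000 bp of the rest of the gene were covered. A gain was therefore not possible there. For comparison, the median share of a wide untreated peak (at least 5 kb) that treated peaks covered, over 7078 such peaks on the 20 chromosomes with peaks in every list, was 72.6 and 70.4% with vorinostat and 73.1 and 70.9% with romidepsin. In the vorinostat lists, peaks covered 3827 and 3496 bp of the promoter, or 95.7 and 87.4%. In the romidepsin lists, they covered 2923 and 2762 bp, or 73.1 and 69.0%. The fold change was 0.915 with vorinostat and 0.711 with romidepsin, and both romidepsin lists were below both vorinostat lists. The romidepsin shares were thus near those medians, and the vorinostat shares above them. The medians are of whole peaks with their edges, while the promoter is an inner part of its peak, so the shares are not alike.

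Most promoter bases without a romidepsin peak lay at the start of MYC. In the first romidepsin list, a peak from -1419 to -21 bp was followed by one from 786 to 5259 bp, counted from the start of MYC, which leaves 806 bp without a peak. In the second list the stretch was 729 bp long, with a peak from -1092 to -21 bp before it and one from 709 to 4312 bp after it. Both lists thus stopped at the same base, and both had no peak at the start itself, which is known here only to 1 kb. Of the first 1000 bp of MYC, peaks covered 215 and 292 bp with romidepsin, against 1000 bp in untreated cells and in both vorinostat lists. Under equal limits, the promoter was covered completely in both vorinostat lists and to 79.9 and 81.8% with romidepsin (fold change 0.808), because both stretches are longer than 509 bp. For whole untreated peaks of at least 5 kb in the region, the median share was 99.7 and 96.9% with romidepsin under these limits. As deposited, the 1000 bp before the start were covered to 979 bp in both romidepsin lists and completely in the other lists.

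**Figure D1:**
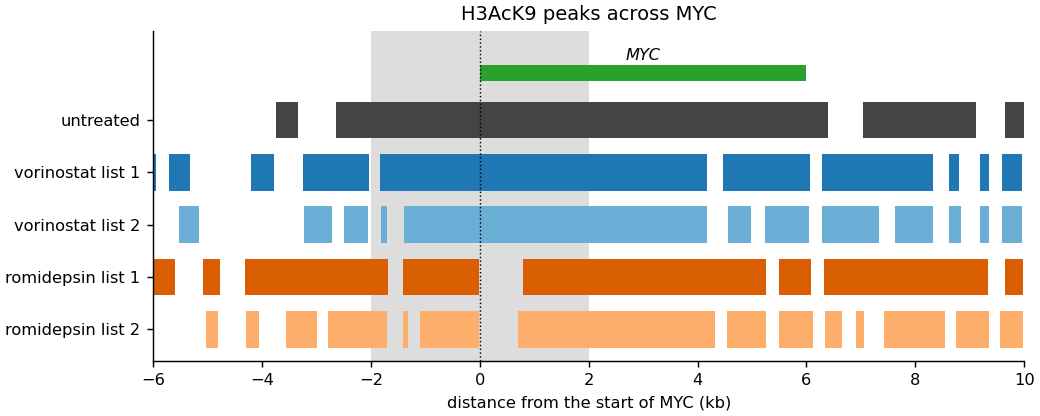
H3AcK9 peaks across MYC. The x axis is the distance from the start of MYC in kb, each bar is a peak, rows are the 5 peak lists, the grey area is the promoter of 4 kb and the green bar is the gene. Untreated cells have 1 peak of 9031 bp, the vorinostat lists have a peak of 5998 and 5555 bp over the start, and both romidepsin lists have no peak there, over 806 and 729 bp.

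Few stretches were this long. Across the 21 untreated peaks of at least 5 kb in the region, the stretches without a peak between neighbouring treated peaks numbered 99 and 108 in the romidepsin lists, with medians of 290 and 285 bp. Of these, 3 and 5 were at least 700 bp long, or 3.03 and 4.63%, a limit set after the MYC values were seen. Over all wide untreated peaks on the 20 chromosomes with peaks in every list it was 7.77 and 8.45%. In the vorinostat lists, 5 of 84 and 8 of 102 were that long (5.95 and 7.84%, against 10.1 and 10.4% over all wide peaks), and none of them lay at the start of MYC. When peaks were merged across up to 1000 bp, the promoter was covered completely in every list. With the promoter taken as 1 kb on either side, the values were 1.00 with vorinostat and 0.616 with romidepsin. With 5 kb on either side they were 0.944 and 0.978.

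Past the first 2 kb, the rest of MYC was covered to 92.5 and 84.1% with vorinostat and to 94.3 and 88.5% with romidepsin. Here the values of the drugs overlapped. Under equal limits this stretch was covered completely in every list.

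Upstream of the promoter the lists differed the other way. In the 98 kb before it, peaks covered 12787 bp in untreated cells, 29173 and 23775 bp with vorinostat, and 33260 and 23796 bp with romidepsin. As shares of the bases these are 13.0%, 29.8 and 24.3%, and 33.9 and 24.3%. The fold change was 2.07 with vorinostat and 2.23 with romidepsin, and every treated list was above the untreated one by a factor of at least 1.86. This stretch was chosen after its values were seen. In this stretch 18 peaks were listed in untreated cells, 65 and 61 with vorinostat, and 84 and 67 with romidepsin. Under equal limits the fold change was 2.65 with vorinostat and 3.14 with romidepsin. With vorinostat, 48 and 42 of the peaks shared no base with an untreated peak (73.8 and 68.9%, where 62.8 and 61.2% did not over all), and with romidepsin 62 and 46 (73.8 and 68.7%, where 61 and 59.7% did not).

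The gain was spread over most of these 98 kb. Between 60 and 50 kb before MYC, peaks covered 88 bp in untreated cells, 3675 and 2492 bp with vorinostat, and 3617 and 2734 bp with romidepsin. Between 40 and 30 kb before MYC, the values were 575 bp, 3236 and 2181 bp, and 3841 and 2280 bp. Between 70 and 60 kb before MYC, where untreated cells already had 5366 bp, there was little difference, with 6235 and 5621 bp with vorinostat and 5466 and 4544 bp with romidepsin. The 10 kb bin of the whole region that gained most covered bases with vorinostat lay here as well, at chr8:128700001-128710000. It had 1377 bp in 3 untreated peaks, against 5397 and 4695 bp with vorinostat. Romidepsin gave 5086 and 5493 bp there. The widest peaks in the 98 kb were looked up after the values were seen. Those of the vorinostat lists had 2425 and 2415 bp, and untreated peaks covered 2329 bp of each. That of the first romidepsin list, which ran into the promoter, had 2621 bp, of which untreated peaks covered 1370 bp. That of the second romidepsin list had 2334 bp at chr8:128705589-128707922, of which untreated peaks covered 260 bp.

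**Figure D2:**
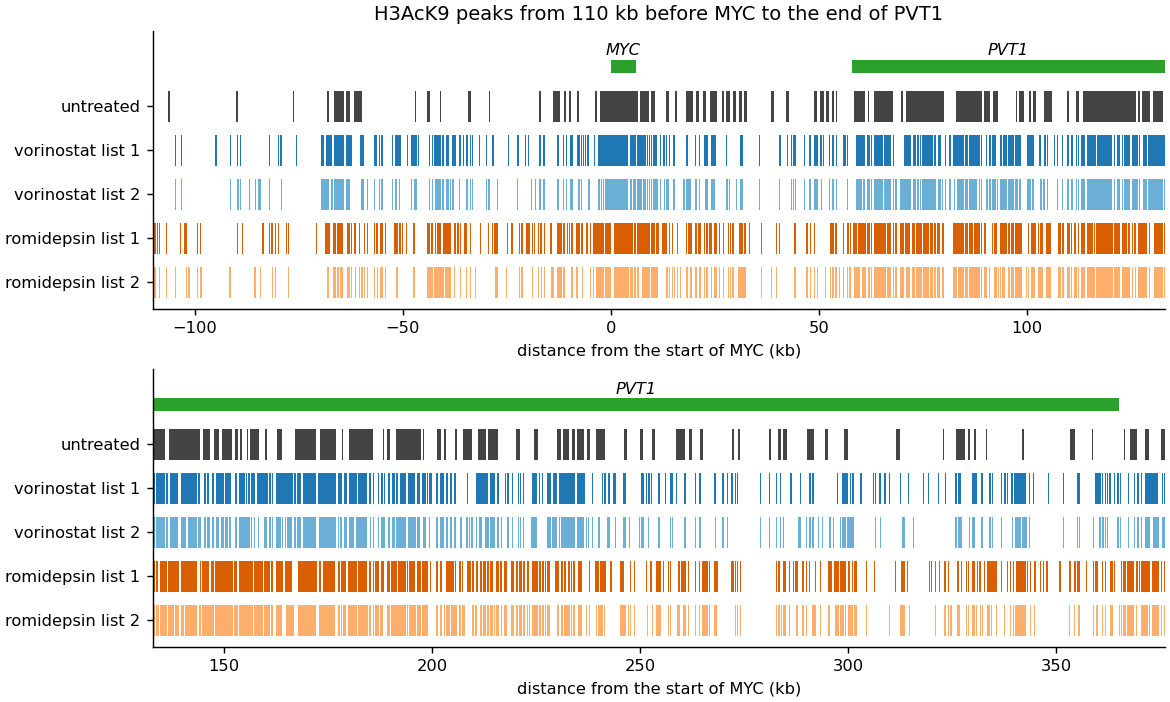
H3AcK9 peaks from the stretch before MYC to the end of PVT1, in 2 rows of panels. The x axis is the distance from the start of MYC in kb, each bar is a peak and green bars are the genes. Treated lists have more peaks before MYC, where untreated cells have 18 in 98 kb, and in the last part of PVT1.

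Between the end of MYC and the PVT1 promoter, peaks covered 17310 bp in untreated cells, 14180 and 14938 bp with vorinostat, and 18149 and 17661 bp with romidepsin. The fold changes were 0.841 and 1.03. Both vorinostat lists were thus below the untreated value, and both romidepsin lists were slightly above it. Under equal limits, which count joined stretches in treated lists only, the fold changes were 1.11 and 1.53, with all treated lists above untreated.

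At the PVT1 promoter the drugs differed in the opposite direction to the MYC promoter. Untreated peaks covered 1835 of its 4000 bp. Vorinostat peaks covered 1793 and 1364 bp, and romidepsin peaks 2567 and 2372 bp, which gives fold changes of 0.860 and 1.35. Under equal limits these were 0.954 and 1.70, with the first vorinostat list above untreated (2139 bp) and the second below (1364 bp). The widest untreated peak at the PVT1 promoter, of 2764 bp, ran from 315 to 3078 bp after the start. The corresponding vorinostat peaks began later than it, at 823 and 795 bp. The start of PVT1 is known here only to 1 kb, so these distances do not tell which peaks begin inside the gene. In the romidepsin lists, peaks began at 22 and 281 bp, and others lay between -1420 and -343 bp, where untreated cells had 1 peak of 149 bp.

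The PVT1 body was densely acetylated. Untreated peaks covered 125896 bp or 41.3% of it, vorinostat peaks 144738 and 134775 bp (47.5 and 44.2%), and romidepsin peaks 160999 and 153663 bp (52.8 and 50.4%). The fold change was 1.11 with vorinostat and 1.25 with romidepsin, and under equal limits 1.39 and 1.61. All treated lists were above untreated, and both romidepsin lists were above both vorinostat lists. Peaks numbered 76 in untreated cells, 206 and 214 with vorinostat, and 240 and 220 with romidepsin, and the median width was 869.5 bp in the untreated list and between 359.5 and 441 bp in the treated ones. Under equal limits, the number of peaks was 90 and 86 with vorinostat and 81 and 79 with romidepsin. With only peaks of a score of at least 1, a value whose scale is not known, the direction turned, with fold changes in covered bases of 0.747 and 0.561.

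Within PVT1, the fold change was highest in the last part of the gene. With PVT1 cut into 6 equal parts of 51167 bp or 1 bp less, the first was covered to 59.3% in untreated cells, 59.8 and 59.6% with vorinostat and 64.2 and 62.3% with romidepsin. The second part had the highest shares, 74.5% in untreated cells, 74.7 and 71.2% with vorinostat, and 79.2 and 80.2% with romidepsin. In these parts the vorinostat fold changes were 1.01 and 0.979, and the romidepsin fold changes 1.07 and 1.07. The third and the fourth part had fold changes of 1.14 and 1.12 with vorinostat, and of 1.26 in each with romidepsin. The fifth part was covered to 15.7% in untreated cells, 19.4 and 18.6% with vorinostat, and 29.1 and 26.7% with romidepsin, fold changes of 1.21 and 1.78. In the last part, with 10.4% in untreated cells, the shares were 26.9 and 18.7% with vorinostat and 31.8 and 22.0% with romidepsin, fold changes of 2.18 and 2.58. In every list the second part was the densest, and the fifth and the last part were the sparsest. Under equal limits the fold changes were 1.3, 1.22, 1.4, 1.37, 1.51 and 2.88 from the first to the last part with vorinostat, and 1.37, 1.31, 1.51, 1.76, 2.45 and 3.66 with romidepsin. The last part thus had the highest fold change for both drugs in either setting, while with a score of at least 1 its values were 0.0795 and 1.58. These are ratios to an untreated share that was lowest there. In bases, the last part had 5341 bp in untreated cells and 13746, 9562, 16284 and 11268 bp in the treated lists, and the third part 27439 bp against 31836, 30637, 34672 and 34662 bp. With equal limits, treated values in the last part were 17466, 13294, 23887 and 15233 bp. In the first part they were 38666, 40190, 42075 and 41284 bp, where untreated cells had 30321 bp. As deposited, the treated lists had 30596, 30507, 32854 and 31895 bp in the first part. Most bases above the untreated value there under equal limits were thus joined stretches, which are counted in treated lists only.

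**Figure D3:**
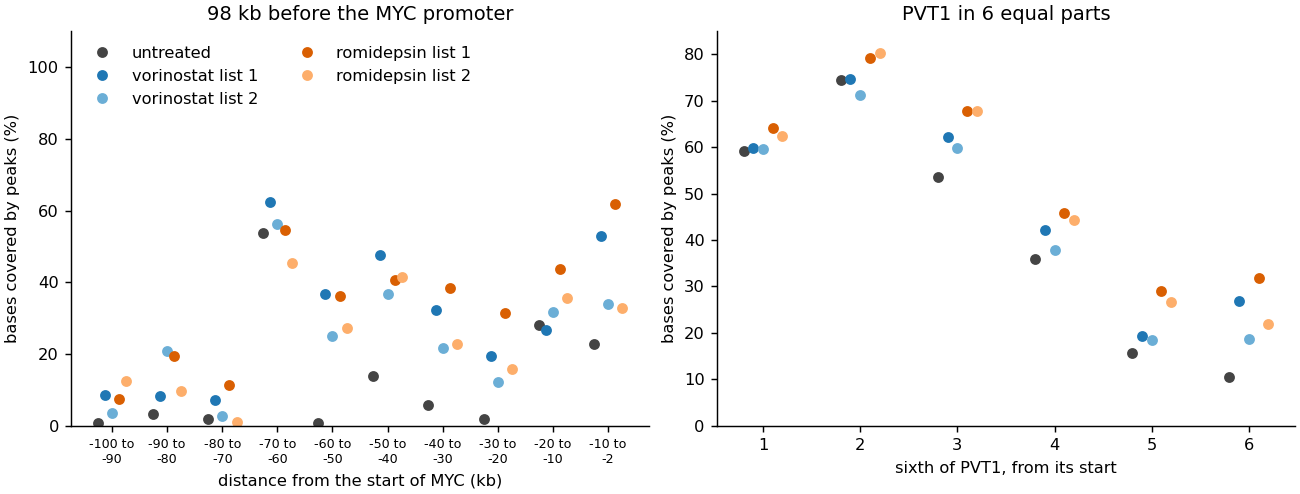
Share of bases covered by H3AcK9 peaks, in %, with 1 point per peak list. On the left, the 98 kb before the MYC promoter in bins of 10 kb (the last one shorter), and on the right, PVT1 in 6 equal parts from its start. Treated points are clearly above untreated ones between 60 and 20 kb before MYC and in the last part of PVT1, and close to them in the first part of PVT1.

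The widest untreated peaks of the PVT1 body were mostly covered in the treated lists. The first, of 12732 bp at chr8:128861288-128874019, was covered to 78.4 and 80.5% by 8 and 7 vorinostat peaks and to 79.7 and 80.8% by 9 and 8 romidepsin peaks. The second, of 9281 bp at chr8:128818780-128828060, was covered to 69.5 and 71.9% with vorinostat and to 76.4 and 74.8% with romidepsin. The other 3 of the 5 widest, of 7581, 6161 and 5912 bp, were covered to between 71.2 and 88.3%. An untreated peak is by definition wholly covered in untreated cells, so these shares can only be lower than 100%. The widest treated peaks of the body were 4369 and 6091 bp with vorinostat and 4607 and 4351 bp with romidepsin.

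The desert on the MYC side held the widest peak of the region in untreated cells. It spanned 25446 bp at chr8:128216540-128241985, between -531 and -506 kb from the start of MYC. After treatment, 94.3 and 95.8% of it were covered by 5 and 4 vorinostat peaks, and 94.0 and 93.9% by 6 peaks in each romidepsin list. The widest peak of every treated list in the region also lay here, with 8743 and 12254 bp with vorinostat and 11040 and 12469 bp with romidepsin. The next, of 12840 bp at chr8:128303572-128316411, was covered to 88.4 and 84.5% with vorinostat and to 88.5 and 88.9% with romidepsin. The other 3 of the 5 widest lay at the far end of this desert. One of 11464 bp at chr8:126283910-126295373 was covered to 73.2 and 72.9% by 9 and 12 vorinostat peaks, and to 68.4 and 67.7% by 11 and 10 romidepsin peaks. One of 10035 bp at chr8:126647596-126657630 was covered to 72.3 and 63.4% with vorinostat and to 82.1 and 74.3% with romidepsin. The fifth, of 9785 bp at chr8:126611949-126621733, was covered to between 80.4 and 87.8%.

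Over all 21 untreated peaks of at least 5 kb in the region, the median covered share was 78.4 and 76.1% with vorinostat and 80.0 and 79.9% with romidepsin. The same medians over all 7078 such peaks on the 20 chromosomes with peaks in every list were 72.6, 70.4, 73.1 and 70.9%. The median number of treated peaks in such an untreated peak was 4 and 6 with vorinostat and 5 and 6 with romidepsin in the region, and 5, 5, 5 and 6 over all. Under equal limits this median was 1 in every list, and the median covered share 95.3, 96.3, 99.7 and 96.9%. As deposited, stretches between neighbouring treated peaks inside these wide peaks had medians of 315.5 and 305.5 bp with vorinostat. With romidepsin the medians were 290 and 285 bp. Joining fills stretches shorter than 509 bp, so most of them were closed by construction. The values under equal limits therefore do not test whether the wide peaks were divided. The widest peak was, under equal limits, covered by 1 peak in each treated list, to at least 99.2%. Of the 21 peaks, 15 lay in the desert on the MYC side, 6 in the PVT1 body and none in the desert on the PVT1 side, and 1 of the first group was the peak over MYC, whose start lies before the promoter. The uncovered bases inside them were partly at the same places. Of those in the first vorinostat list, 81.6% were also uncovered in the second, and 48.1% were uncovered in the first romidepsin list. In all wide peaks these shares were 87.7 and 51.1%.

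As a whole, the desert on the MYC side had a similar covered length in all lists as deposited. Peaks covered 646652 bp in untreated cells (23.5%), 671582 and 604050 bp with vorinostat and 733220 and 665781 bp with romidepsin. The fold change was 0.986 with vorinostat, with 1 list above and 1 below untreated, and 1.08 with romidepsin. The lists of a single sample differed by more than the conditions here. Under equal limits, which count joined stretches in treated lists only, the values were 1.24 and 1.4, with all treated lists above untreated. Peaks numbered 577 in untreated cells, 1387 and 1379 with vorinostat and 1399 and 1438 with romidepsin.

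The desert on the PVT1 side was sparse in untreated cells and gained with both drugs. Peaks covered 81254 bp or 5.86% of it in untreated cells, 127469 and 104571 bp (9.19 and 7.54%) with vorinostat, and 127008 and 107728 bp (9.16 and 7.77%) with romidepsin. The fold change was 1.43 with vorinostat and 1.44 with romidepsin, under equal limits 1.74 and 1.83, and all treated lists were above untreated. With a score of at least 1 they turned to 0.736 and 0.545. Its widest untreated peak had 4074 bp, at chr8:129182829-129186902, and was covered to 75.2% by either vorinostat list and to 77.3 and 76.8% with romidepsin. The next, of 2813 bp at chr8:129330775-129333587, was covered to only 31.8 and 36.1% with vorinostat and to 53.3 and 47.0% with romidepsin. The widest peak of the first romidepsin list in this desert, of 3486 bp at chr8:129279338-129282823, was covered to 20.6% by untreated peaks and to 87.3 and 76.7% by vorinostat peaks. That of the first vorinostat list had 4991 bp, at chr8:129332694-129337684, and peaks of the second list covered 64.5% of it.

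Over the whole region, peaks covered 880947 bp in untreated cells (19.6%), 967289 and 866559 bp with vorinostat (21.5 and 19.3%), and 1048638 and 953509 bp with romidepsin (23.3 and 21.2%). The fold change was 1.04 with vorinostat, with 1 list above and 1 below untreated, and 1.14 with romidepsin, with both above. On chromosome 8 outside the region the factors were 0.924 and 1.01, and on the 20 chromosomes with peaks in all lists 0.879 and 0.967. Of 573 other windows of 4.5 Mb on these chromosomes, 19.4% had more covered bases with vorinostat than untreated and 26.9% with romidepsin, and the fold change was higher than in the MYC and PVT1 region in 79 of them for vorinostat and in 62 for romidepsin. Under equal limits it was higher in 68 and 63 of them. With a score of at least 1 the region had fold changes of 0.601 and 0.729. The number of peaks had fold changes of 2.51 and 2.55 in the region, against 2.5 and 2.55 in the rest of chromosome 8. Under equal limits, where joining lowers the number of peaks in treated lists only, it had fold changes of 1.21 and 1.05 in the region. These were 1.28 and 1.22 on the rest of chromosome 8, and 1.22 and 1.17 on the 20 chromosomes. The covered bases had fold changes of 1.3 and 1.47 in the region, 1.16 and 1.31 on the rest of chromosome 8, and 1.11 and 1.26 on the 20 chromosomes. The median width was 611 bp in untreated cells, 256 and 236 bp with vorinostat, and 279 and 255.5 bp with romidepsin. Peaks of at least 2 kb numbered 101 in the untreated list and 49 to 80 in the treated ones, and those of at least 10 kb 5 and at most 1. As deposited, peaks of at least 5 kb numbered 21 in the untreated list and 12, 5, 2 and 3 in the treated ones. Under equal limits the treated lists had 45 to 67, and the untreated list still 21. Joining lengthens peaks in treated lists only, so this higher number is no sign of broader acetylation by itself.

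Most untreated peaks of the region shared bases with treated peaks. Of the 795, 250 had no base in common with the first vorinostat list and 251 with the second, 31.4% (exact 95% interval for counting error 28.2 to 34.8%) and 31.6%, where 42.5 and 40.9% of all untreated peaks had none. The interval takes the peaks as independent, which neighbouring peaks need not be, and it is no test against the background. With the romidepsin lists 256 and 254 peaks had no base in common, 32.2 and 31.9%, where the background was 39.4 and 38%. In the PVT1 body, 13 and 9 of 76 untreated peaks had no vorinostat peak and 7 had no romidepsin peak in each list. In the desert on the PVT1 side it was 57 and 59 of 120 for vorinostat and 55 and 61 for romidepsin. In all, 127 of the 795 peaks (16.0%) had no peak in any of the 4 treated lists, against 21.5% of all untreated peaks, and these were narrow, with a median of 291 bp and at most 1327 bp. The peaks over MYC and the widest ones of the deserts and of PVT1 were not among them.

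Most treated peaks of the region lay outside untreated ones. These were 1172 of 2006 and 1090 of 1978 for vorinostat (58.4 and 55.1%, where the background was 62.8 and 61.2%), and 1185 of 2023 and 1144 of 2038 for romidepsin (58.6 and 56.1%, against 61 and 59.7%). Their median widths were between 177.5 and 200 bp. In the desert on the PVT1 side the share was 80.5 and 77.5% for vorinostat and 74.6 and 74.2% for romidepsin, and in the PVT1 body 48.5 and 40.2%, and 49.2 and 45.5%. At MYC itself, none of the treated peaks could lie outside the untreated one, which covered the promoter and the whole gene. Outside untreated peaks, 61.3% of the first vorinostat list shared a base with a peak of the second list, where 70.1% did over all chromosomes. With the first romidepsin list 40.2% shared a base, where 33.7% did over all. For the first romidepsin list, 68.1% were met in its second list and 38.9% in the first vorinostat list, with backgrounds of 74.3 and 32.4%. The second vorinostat list gave 69.5 and 41.7% in the same order, with backgrounds of 72.7 and 33.9%, and the second romidepsin list 73.7 and 38.4%, with backgrounds of 76.8 and 32.4%. The same start and end in both lists of a sample occurred for 281 of 2006 vorinostat and 323 of 2023 romidepsin peaks of the first list (16.0% of the latter), where the background was 26.9 and 29.1%.

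By distance, the covered bases formed a small number of hills that all lists shared. In bins of 100 kb, untreated peaks covered over 50 kb in the bins from -2348 to -2048 kb, counted from the start of MYC, with 53364, 56136 and 50419 bp. They did so again from -1248 to -1148 kb, with 50865 bp, from -548 to -448 kb, with 59643 bp, and from 52 to 152 kb after the start of MYC, with 65758 bp, the highest value. The last holds the first part of PVT1. In that bin vorinostat gave a mean of 63762.5 bp and romidepsin of 68812.5 bp. The lowest untreated value was in the bin from 1452 to 1552 kb after the start, where peaks covered 127 bp in untreated cells and 949 and 802 bp with vorinostat and 932 and 1395 bp with romidepsin.

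**Figure D4:**
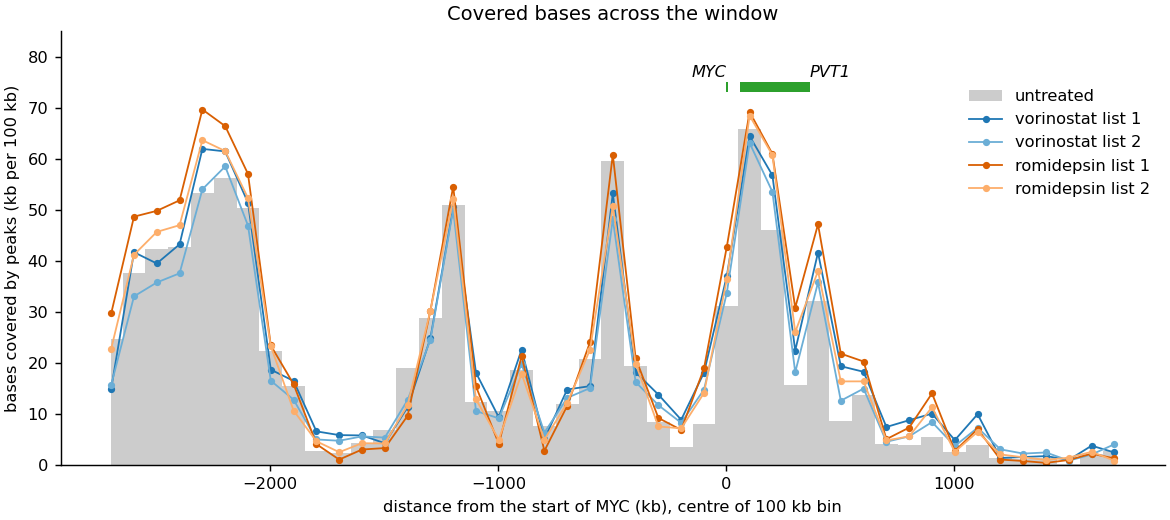
Bases covered by H3AcK9 peaks in bins of 100 kb, in kb, by distance from the start of MYC in kb. The grey area is the untreated list, lines are the 4 treated lists and green bars are the genes. The hills have the same places in all lists, with the highest untreated bin at the first part of PVT1 (65758 bp). Treated lines lie above the grey area from -248 to 1152 kb, except over the first part of PVT1, where vorinostat lies slightly below it. Beyond 1152 kb some treated lines lie below it.

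Some valleys before MYC had more covered bases with both drugs. The bin from -248 to -148 kb had 3394 bp in untreated cells and means of 8516 bp with vorinostat and 6974.5 bp with romidepsin. The next, from -148 to -48 kb, had 8061 bp and means of 16405 and 16482.5 bp. The first passed the minimum named next only through its treated values. These were the bins that at least doubled with both drugs, among those where untreated or treated peaks covered at least 5000 bp. In all, 5 of 38 such bins at least doubled with vorinostat (13.2%, where 5.6% of such bins did over all chromosomes) and 4 of 34 with romidepsin (11.8%, where 4.54% did). A bin that met the minimum only with treated peaks had to be higher, so these counts support nothing by themselves. With the minimum set on the untreated list alone, chosen after seeing the data, 1 of 31 bins doubled with vorinostat (3.23%, where 1.91% did over all), the one from -148 to -48 kb, and 3 of 31 with romidepsin (9.68%, where 2.26% did). None was at least 2 times lower with vorinostat, where 4.83% were over all. With romidepsin 2 were (5.88%, where 5.46% were), from -1048 to -948 kb and from -848 to -748 kb. Under equal limits, 9 of 39 bins at least doubled with vorinostat (23.1%, where 11.1% did over all) and 7 of 36 with romidepsin (19.4%, where 11.2% did), both bins before MYC among them. None was then at least 2 times lower with either drug, where 2.25 and 3.15% were over all. The minimum could again be met by treated peaks alone, as in the bin from -248 to -148 kb. Joining also adds bases in treated lists only. These counts too support nothing by themselves.

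In bins of 10 kb, restricted to those with at least 500 covered bp, 74 of 337 at least doubled with vorinostat (22.0%, where 19.9% did over all chromosomes) and 40 were at least 2 times lower (11.9%, where 23.5% were). With romidepsin, 76 of 321 at least doubled (23.7%, where 19.7% did) and 46 were at least 2 times lower (14.3%, where 22.3% were). Here too, a bin could meet the minimum through treated peaks alone. With the minimum on the untreated list, 24 of 281 bins at least doubled with vorinostat (8.54%, where 5.93% did) and 38 of 281 with romidepsin (13.5%, where 8.41% did), and the 40 and 46 lower ones were 14.2 and 16.4% of them, where 28.3 and 26% were. Under equal limits, 101 of 342 at least doubled with vorinostat (29.5%, where 26% did) and 102 of 325 with romidepsin (31.4%, where 27.8% did). Those at least 2 times lower were then 33 (9.65%, where 19.1% were) and 38 (11.7%, where 18.7% were). Under equal limits the minimum could again be met by treated peaks alone, and joining adds bases in treated lists only. As deposited, untreated peaks covered no base in 29 of the 74 and 22 of the 76, so no fold is given for them. The highest gain with romidepsin was at chr8:126410001-126420000, from 1363 bp to 6298 and 5797 bp, where vorinostat gave 3505 and 2766 bp. At chr8:126600001-126610000 untreated peaks covered 2480 bp, vorinostat peaks 6523 and 5045 bp and romidepsin peaks 7650 and 6484 bp. At chr8:129080001-129090000, in the last part of PVT1, 341 bp in untreated cells stood against 4793 and 3141 bp with vorinostat and 5443 and 4101 bp with romidepsin.

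Of the 3 bins of 10 kb with the largest loss for each drug, the first with vorinostat was at chr8:127480001-127490000, from 6843 bp to 3357 and 3181 bp, where romidepsin gave 4868 and 5312 bp. The next was at chr8:128190001-128200000, from 5536 to 2294 and 1892 bp, with 4330 and 4680 bp with romidepsin, and the third at chr8:126110001-126120000, from 4314 to 1027 and 1308 bp, with 3193 and 3939 bp with romidepsin. The largest with romidepsin was at chr8:127400001-127410000, from 4074 to 516 and 1090 bp, where vorinostat gave 2056 and 3043 bp. At chr8:126010001-126020000 the values were 8128 bp in untreated cells, 5535 and 5064 bp with romidepsin, and 5612 and 5442 bp with vorinostat. At chr8:126740001-126750000 they were 5222 bp, 2183 and 2769 bp, and 2879 and 2256 bp. Under equal limits both romidepsin lists were above untreated in 2 of these 6 bins, with 6829 and 6428 bp at chr8:128190001-128200000 and 4465 and 4714 bp at chr8:126110001-126120000. The largest romidepsin loss remained, with 337 and 1254 bp at chr8:127400001-127410000. The vorinostat values at chr8:127480001-127490000 were 5011 and 4711 bp, still below the untreated 6843 bp.

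The drugs were also compared by the density of the bin. The 45 bins of 100 kb were split into 3 equal classes by their mean over the 3 conditions, to which the compared values themselves contribute. In the 15 densest, both romidepsin lists covered more bases than both vorinostat lists in 11 bins and fewer in none. In the 15 sparsest, both romidepsin lists covered fewer in 10 bins and more in none. In the 15 between, it was 4 bins in either direction. Over all chromosomes, with classes of the same bounds, romidepsin was above in 72.6% and below in 6.26% of the dense bins, above in 11.4% and below in 59.1% of the sparse ones, and above in 40.1% and below in 30% of those between. With classes set by the untreated list alone, chosen after seeing the data, romidepsin was above in 11 and below in none of the 15 densest bins, and above in 1 and below in 9 of the 15 sparsest, where the shares over all chromosomes were 70.3 and 7.58%, and 11.6 and 58.3%. The region thus had shares near those over all chromosomes. Under equal limits romidepsin was above in 13 of the 15 densest bins of the region and below in none, and below in 12 of the 15 sparsest and above in 1. The shares over all chromosomes were not computed under equal limits, so these counts cannot be set against them. The covered bases of the sparse class had a fold change of 1.43 with vorinostat and 0.995 with romidepsin, and those of the dense class of 0.999 and 1.15. Values for the drugs share the same untreated list.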

How the data were processed

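The peak lists deposited by the authors, 1 for untreated SKOV3 wt cells and 2 per drug, were used as they are. The 3 ChIP samples were grouped by title, and the 3 input samples have no list here. The authors called peaks per list with MACS 1.4.2 on reads filtered by SOAPnuke. For alignment they name SOAPaligner, SOAP2 and BWA. Drosophila chromatin was spiked in, and its use is not given in the sources used here. The authors' score of a peak, a deposited value with no named scale, served only as a filter. The labels name hg38, but peaks lay past the end of hg38 chromosome 8 (145138636) in every list, and contigs carry hg19 names, so coordinates were read as hg19. They are 1-based, and none was converted. No hg19 genome or annotation was used, and no sequence is printed.

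Peak numbers, covered bases and overlaps of at least 1 bp came from Python 3.11.15 with NumPy 2.4.6, pandas 2.3.3, SciPy 1.17.1 and Matplotlib 3.10.9. On simulated peaks the functions gave the right result in 60 of 60 checks, some of them against bedtools 2.31.1. A fold change is the mean of both treated values over the untreated one. Backgrounds use the 20 chromosomes with peaks in all 5 lists. With 1 sample per condition no test was made, and exact Clopper-Pearson 95% intervals cover counting error only, with peaks taken as independent. Named peaks were those at MYC and both promoters, the 5 widest untreated and the widest treated ones of PVT1 and each desert, and the 3 bins of 10 kb with the largest gain and loss per drug. Members and lists were chosen with earlier results of these data known. The 98 kb before MYC, the sixths of PVT1, the bins of 100 kb, the equal limits and the minimum and classes set by the untreated list were chosen after seeing the data. Alternatives were each list alone, filters on score and width, merged peaks, equal limits, other promoter and body bounds, and another overlap rule.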

Additional observations from a re-analysis of the deposited data

How the results depend on the processing

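Under the alternatives, 109 of 148 values stayed on the same side of 1 and within 1.5 times of the reported fold change, or within the counting interval of the reported share. For the cases given here the cause was not tested. A minimum score of 1 gave fold changes in covered bases of 0.601 and 0.729 for the region (vorinostat and romidepsin), 0.747 and 0.561 for the PVT1 body, 0.535 and 0.777 for the desert on the MYC side, and 0.736 and 0.545 for the desert on the PVT1 side. In the last sixth of PVT1 it gave 0.0795 and 1.58. No peak over the MYC promoter has such a score in untreated cells, so no value can be given. Of untreated peaks, 81.0 and 81.5% then had no treated peak, and of treated peaks 87.8 and 87.4% no untreated one. The vorinostat value of the region was 0.984 with the second list alone and 0.953 with peaks of at least 200 bp. That of the desert on the MYC side was 1.04 with the first list alone, and 1.10 and 1.32 with peaks merged across up to 300 and 1000 bp. Equal limits for all lists, added after seeing the data, gave 1.24 there, fold changes of 1.21 and 1.05 for the number of peaks, and 54.4% of treated peaks without an untreated one with romidepsin. With merging across up to 1000 bp the number of peaks had fold changes of 1.45 and 1.17, and the romidepsin fold change was 3.39 in the 98 kb before MYC and 4.09 in the last sixth of PVT1. In these 98 kb, which were chosen after their values were seen, every alternative gave at least 1.86. All alternatives use the same lists, so this is no independent check of that gain. Untreated peaks without a treated one were 37.6 and 36.8% with a width of at least 200 bp, 37.4% (romidepsin) with merging across up to 1000 bp, and 60.0 and 54.8% where 0.5 of a peak had to be covered. Treated peaks without an untreated one were 45.2 and 45.7%, 62.6 and 64.3%, and 67.0 and 67.1% under these, and 59.5% for romidepsin with merging across up to 300 bp. No paired analysis was possible because there is 1 sample per condition. Depth per list is not part of the files, so its effect on the values cannot be given.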
